A study of Mus musculus with 6 samples.

Results

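Integrins and laminins are the receptors and the matrix proteins through which cells of the gut wall hold on to each other and to their basement membranes. They were followed in RNA of the large intestine of mice with inflammatory bowel disease. The members are the genes of the deposited FPKM table (fragments counted on a gene, scaled to its length and to the depth of the library) whose symbol begins with Itga, is Itgb with a number, or is Lama, Lamb or Lamc with a number. The rule found 37 of the 35434 gene symbols, namely 18 integrin α chains, 8 integrin β chains and 11 laminin chains (5 α, 3 β and 3 γ). For the description they were divided into 8 leukocyte integrins (Itgal, Itgam, Itgax, Itgad, Itgae, Itga4, Itgb2 and Itgb7), 18 tissue integrins and 11 laminin chains.

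The animals had received regulatory T cells (Tregs), either control Tregs (Ctrl-Tregs) or Tregs treated with lenvatinib, an inhibitor of several receptor tyrosine kinases (Lenv-Tregs). The 6 libraries are titled int 2 or int 3 with the replicate numbers 1 to 3, and the labels do not tie either number to a transfer. So every change is counted from int 2 to int 3, without a treatment attached. The sources used here give no strain, age, sex or way of inducing the disease, and do not say if replicates are different mice, so the p-values measure the spread between these libraries only. Depth was even, with 34.0 to 35.1 M fragments per library (M for mega). Epithelial markers of the large intestine were abundant in every library, with Epcam at 595 to 700 FPKM and the summed level of all 8 epithelial markers at 4973 to 4988 in int 2 and 4674 to 5738 in int 3. That sum was mostly Lgals4, at 3261 to 3277 in int 2 and 3337, 2574 and 4072 in int 3-1, int 3-2 and int 3-3. It does not show Muc2, which stood at 93.5 to 96.1 in int 2 and 274, 467 and 102 in int 3-1, int 3-2 and int 3-3.

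The libraries of int 3 lay farther apart than those of int 2. Over the 31 members that could be tested, the fragments of the int 2 libraries gave chi-square values that averaged 2.95 per degree of freedom, and those of int 3 gave 71.1, where independent sampling of fragments gives 1. Over all tested genes these averages were 3.03 and 86.9, so the wider spread of int 3 was not particular to the members. Int 3-2 was the int 3 library farthest from the int 2 mean for 22 of the 31, and int 3-1 lay between int 3-2 and int 3-3 for 27 of all 37 members. How often this held over all genes was not counted. Each value below is therefore given for every library where the result turns on it.

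An integrin is a pair of 1 α chain and 1 β chain that crosses the membrane and binds a ligand outside the cell. It couples the ligand to the cytoskeleton inside, to actin through adaptors such as talins and kindlins. On leukocytes the β2 and β7 integrins mediate arrest on vessel walls, entry into tissue and, for αMβ2, uptake of complement-coated particles. Epithelial, muscle and stromal cells use mostly β1 integrins, αv integrins and α6β4, and a laminin, made of 1 α, 1 β and 1 γ chain, is a main ligand of α3β1, α6β1 and α6β4 in the basement membrane. In the gut, α4β7 is known as the receptor that guides lymphocytes to MAdCAM-1 on mucosal vessels, and αEβ7 as the one that holds them to epithelial E-cadherin.

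The start regions of 4 members are shown, because they stand for the classes described below: Itgam, the leukocyte chain that rose, Itgb7, the leukocyte chain with the largest fall, and Itga5 and Lamb1, the tissue integrin and the laminin chain with the largest rises among those that passed the test. The 250 bases before the annotated start site are taken from RefSeq on build GRCm38.p6, not the build of the deposited values. They lie at chr7:128062390-128062639 on the plus strand, chr15:102231936-102232185 on the minus strand, chr15:103366792-103367041 on the minus strand and chr12:31265043-31265292 on the plus strand. Letters are given 5′ to 3′ along the gene, and capitals mark GGGCGG or its reverse complement CCGCCC, the GC box bound by factors of the SP family.
Itgam: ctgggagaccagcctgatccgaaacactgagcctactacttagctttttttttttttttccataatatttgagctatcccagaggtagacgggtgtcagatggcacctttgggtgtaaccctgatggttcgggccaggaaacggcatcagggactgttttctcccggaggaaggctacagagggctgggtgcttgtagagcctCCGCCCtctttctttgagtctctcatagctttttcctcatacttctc
Itgb7: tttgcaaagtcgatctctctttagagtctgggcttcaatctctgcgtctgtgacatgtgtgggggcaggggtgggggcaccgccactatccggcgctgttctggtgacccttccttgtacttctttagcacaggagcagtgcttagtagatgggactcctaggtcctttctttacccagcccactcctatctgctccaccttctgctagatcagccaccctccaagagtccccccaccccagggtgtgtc
Itga5: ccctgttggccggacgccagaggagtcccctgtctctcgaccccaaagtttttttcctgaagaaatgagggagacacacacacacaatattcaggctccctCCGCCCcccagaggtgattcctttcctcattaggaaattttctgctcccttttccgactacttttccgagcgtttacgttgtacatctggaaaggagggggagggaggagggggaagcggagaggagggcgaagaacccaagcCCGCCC
Lamb1: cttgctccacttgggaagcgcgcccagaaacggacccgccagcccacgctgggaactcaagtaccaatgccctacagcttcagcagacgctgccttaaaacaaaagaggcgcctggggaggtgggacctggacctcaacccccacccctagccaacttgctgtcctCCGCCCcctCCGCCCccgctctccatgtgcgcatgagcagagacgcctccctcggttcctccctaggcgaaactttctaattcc
Itgam held 1 GC box, Itga5 held 2, Lamb1 held 2, and these letters are not in the Itgb7 window. The promoter table held windows for 23 of the 37 members, and 9 of their 26 windows had a GC box, against 32.7% of all 32851 windows. A PU.1 site (GAGGAAGT), an AP-1 site (TGANTCA) and a RUNX site (TGTGGT), searched on both strands, occurred in 3, 1 and 2 of the 26 member windows, against 2.44%, 6.75% and 14.0% of all windows. None of these 3 stood in the 4 windows shown. No motif searched is contained in another, and a match of letters is a description only.

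Of the 31 tested members 10 were higher and 2 lower in int 3 in limma's test at an adjusted p under 0.05, and 19 did not pass. Over all 12525 tested genes 8.64% were higher and 6.7% lower, 15.3% in either direction. A gene is said to have risen or fallen only where it passed. A gene was tested when it reached 1 FPKM in at least 3 libraries, which left out Itgad, Itga2b, Itga10, Itga11, Itgb8 and Lama1. The values of the 2 groups did not overlap for 21 of the 31 tested members, against 40.4% of all tested genes. The 21 include Itgae, which reached the filter in its int 2 libraries only, so that its lack of overlap follows from the filter. Among leukocyte integrins 1 rose and 2 fell of 7 tested. Their median log2 change was -0.38 over the 6 other than Itgae, which was tested only because of its int 2 values. Among tissue integrins 5 rose and 0 fell of 14 (median 0.28), and among laminin chains 4 rose and 0 fell of 10 (0.38), where the median over all tested genes was 0.03. Log2 changes are differences of group means of log2(FPKM + 1), a scale on which changes at low FPKM come out smaller than they are.

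**Figure D1:**
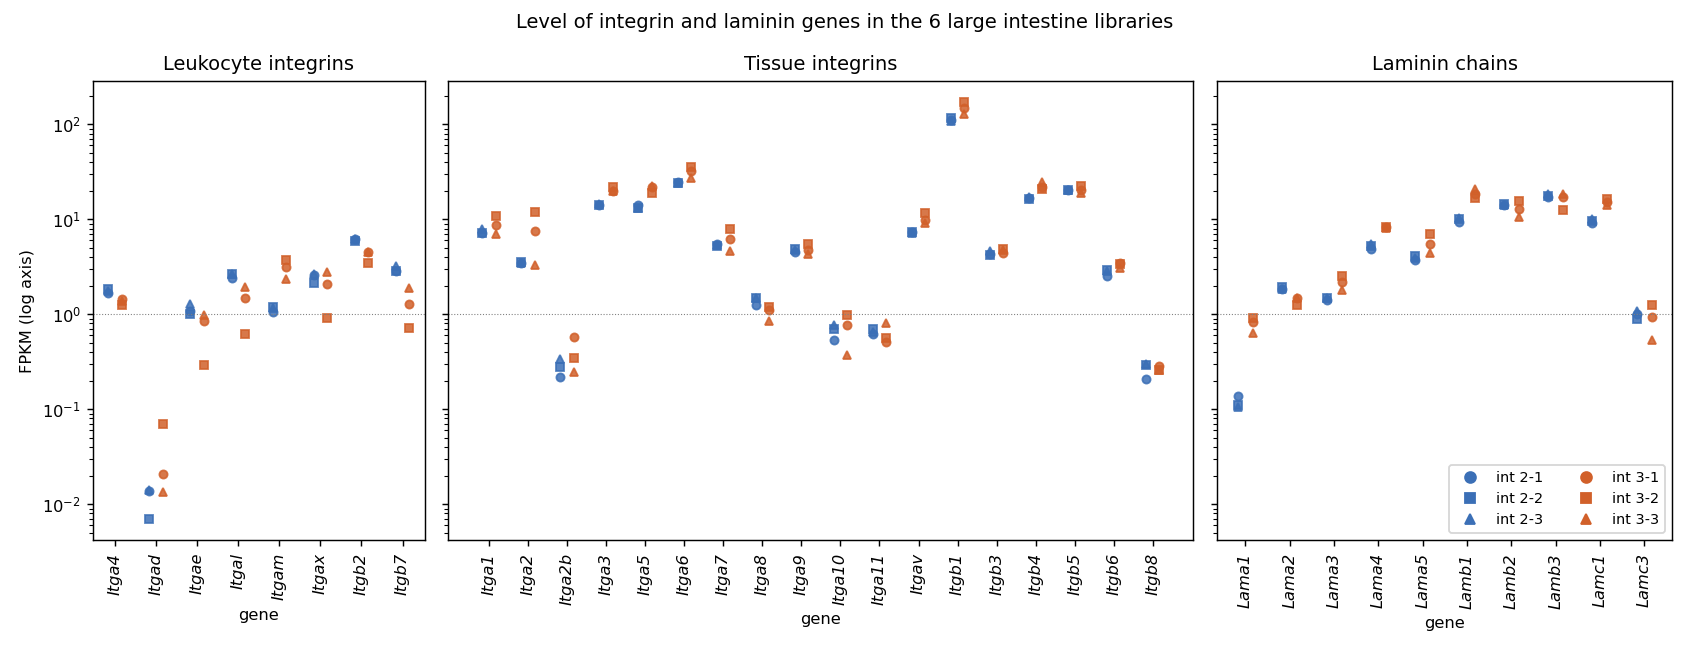
FPKM of 36 of the genes on a log axis, with blue symbols for the 3 int 2 libraries, orange symbols for the 3 int 3 libraries and a dotted line at 1 FPKM. The int 2 symbols lie close together for most genes, and the int 3 symbols spread over more than 3-fold for Itgad, Itga2, Itgae, Itgal and Itgax.

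**Figure D2:**
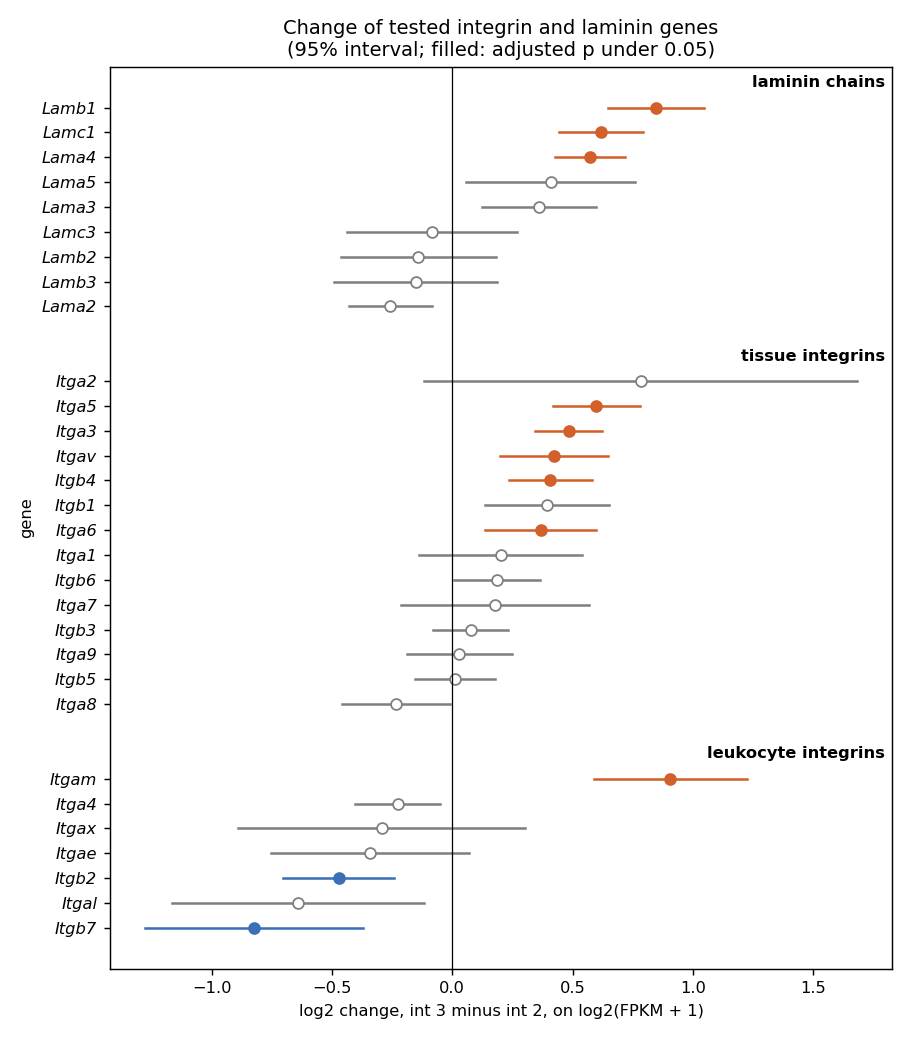
Log2 change of 30 of the tested genes, int 3 minus int 2, with 95% intervals from limma, in 3 blocks for laminin chains, tissue integrins and leukocyte integrins. Filled symbols passed the test, 9 above 0 and 2 below 0.

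Among the leukocyte integrins the myeloid chain Itgam rose while the shared β chains Itgb2 and Itgb7 fell. Itgam encodes αM (CD11b) of neutrophils, monocytes and macrophages. In numbered order its FPKM values were 1.07, 1.2 and 1.18 for the int 2 libraries and 3.15, 3.70 and 2.33 for the int 3 libraries, the order kept for all genes below. All int 3 libraries were above all int 2 libraries, and the means rose 2.67-fold (mean 1.15, SD 0.0704, against mean 3.06, SD 0.687, with n = 3 in both groups; limma log2 change 0.91 with an SE of 0.13, adjusted p = 0.00808). The fragments behind these values numbered 171 to 193 in int 2 and 383 to 589 in int 3.

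Itgb7 encodes the β chain of α4β7 and αEβ7. Its level was 2.85, 2.85 and 3.26 FPKM in int 2 and 1.30, 0.716 and 1.88 in int 3-1, int 3-2 and int 3-3. It was lower in every int 3 library, lowest in int 3-2, and fell by 0.82 on the log2 scale (SE 0.19, adjusted p = 0.0334). Itgb2, the β chain common to LFA-1, Mac-1 and their relatives, stood at 6.23, 5.97 and 6.13 FPKM in int 2 against 4.5, 3.47 and 4.49 in int 3. It also was lower in all 3 int 3 libraries and fell by 0.47 (SE 0.10, adjusted p = 0.0234). When int 2-1, int 2-2, int 2-3 or int 3-1 was left out, neither passed. The changes then were -0.46 to -0.52 for Itgb2 (adjusted p = 0.0658 to 0.107) and -0.78 to -0.85 for Itgb7 (adjusted p = 0.114 to 0.133). Both passed without int 3-2 (adjusted p = 0.00676 and 0.0129) and without int 3-3 (0.00989 and 0.0037). Without a filter neither passed (0.0506 and 0.0747), nor did Itgb7 with a pseudocount of 0.01 (0.0523). Itgam passed in each of these fits.

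The α partners of lymphocytes had lower values in int 3 but did not pass. Itgal, the αL chain of LFA-1 on most leukocytes, stood at 2.39, 2.64 and 2.63 FPKM in int 2 against 1.49, 0.613 and 1.95 in int 3, so that the groups did not overlap (-0.64, 95% interval -1.16 to -0.12, adjusted p = 0.1). Itgal passed with group weights (0.0484), without int 3-2 (0.0347) and without int 3-3 (0.0155), and in no other alternative fit. Itga4, the α4 chain of α4β1 and α4β7, stood at 1.69, 1.86 and 1.752 in int 2 and 1.47, 1.24 and 1.39 in int 3 (-0.23, interval -0.40 to -0.05, adjusted p = 0.0866). Among the alternative fits Itga4 passed only with voom (0.0371). Itgae, the αE chain of intraepithelial lymphocytes and some dendritic cells, stood at 1.10, 1.01 and 1.29 in int 2 and 0.849, 0.296 and 0.981 in int 3. It reached the filter only through its int 2 values, and its change of -0.34 had an adjusted p of 0.22. Itgax, the αX chain (CD11c) of dendritic cells and macrophages, overlapped between the groups, at 2.57, 2.15 and 2.68 in int 2 and 2.09, 0.916 and 2.80 in int 3 (adjusted p = 0.449). Itgad was almost absent, with 1 to 2 fragments in each int 2 library and 3, 10 and 2 in int 3-1, int 3-2 and int 3-3.

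Itgam, Itgax and Itgad are neighbours on chromosome 7 in the RefSeq order of genes, and only Itgam passed the test of a change. That their changes differ was not tested. The 4 α chains that pair with β2 had a similar summed level in both groups, 5.99 to 6.50 FPKM in int 2 and 5.30 to 7.09 in int 3. Itgam made up 17.6% to 19.98% of that sum in int 2 and 46.7%, 69.8% and 32.9% in int 3-1, int 3-2 and int 3-3. The share of Itgal was 39.5% to 44.1% in int 2 and 11.6% to 27.4% in int 3, and that of Itgax 35.8% to 42.6% and 17.3% to 39.5%. The Itgam share of each int 3 library exceeded the highest int 2 share, but in int 3-3 Itgax still had the largest part of the sum.

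**Figure D3:**
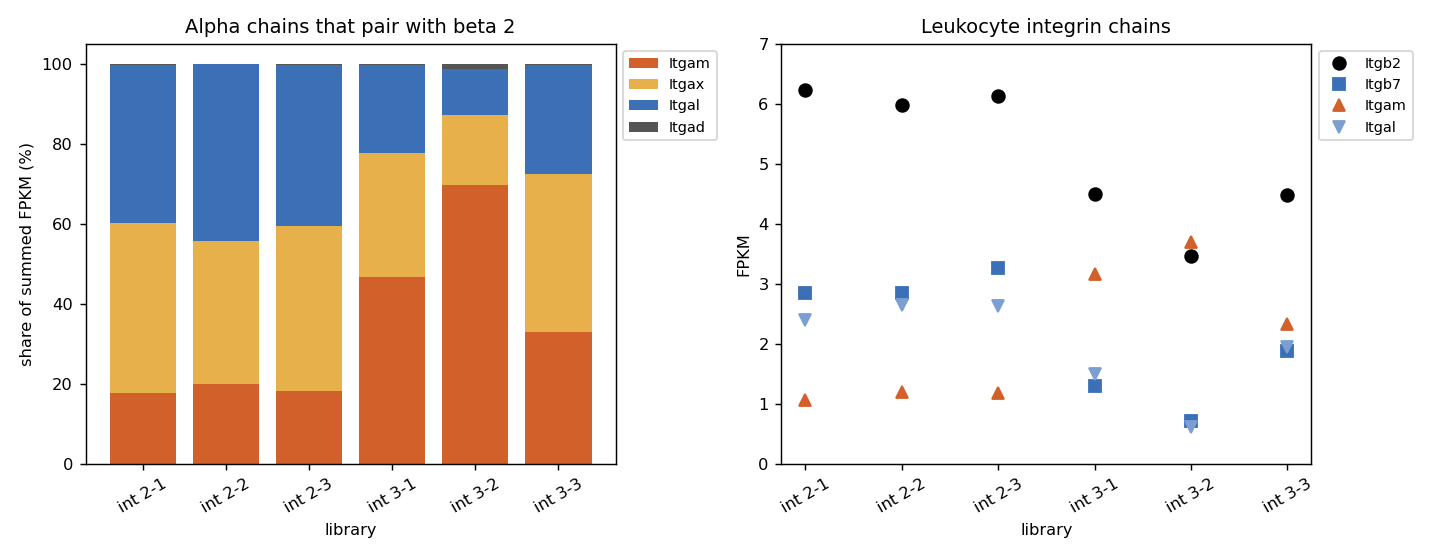
Left, share of each α chain in the summed FPKM of the 4 chains that pair with β2, for each library. Right, FPKM of Itgb2, Itgb7, Itgam and Itgal, where Itgam is above its int 2 values in all 3 int 3 libraries and the other 3 are below theirs.

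Markers of whole cell classes moved beside these genes. Over all tested genes 8.64% rose and 6.7% fell. In bulk tissue fewer cells of a type and less RNA per cell cannot be told apart. All 4 general leukocyte markers fell (summed level 101 to 104 FPKM in int 2 and 37.3 to 66.3 in int 3), as did 5 of 5 B cell markers (127 to 134 and 4.10 to 37.5) and 3 of 6 tested T cell markers (25.4 to 27.2 and 7.84 to 16.4). Plasma cell markers fell in 3 of 3 tested (289 to 296 and 29.4 to 87.6). Macrophage and monocyte markers rose in 5 of 6 (49.5 to 50.4 and 79.2 to 86.7), of which Fcgr1 and Ccr2 were tested only because of their int 3 values. The sum of 5 neutrophil markers was 39.0 to 39.9 in int 2 and 75.8 to 162 in int 3. It was mostly Ly6g, which did not pass (adjusted p = 0.0697) and stood at 106, 51.8 and 155 in int 3-1, int 3-2 and int 3-3. S100a8 and S100a9 rose but were tested only because of their int 3 values, and S100a8 was listed at 0 in int 2-1 and int 2-2. The int 3 libraries stood in the opposite order for these genes, at 5.76, 10.5 and 3.86 for S100a8 and 6.88, 12.7 and 2.23 for S100a9. The sum thus does not stand for all its members. The dendritic cell sum was 3.42 to 4.07 in int 2 and 1.93 to 3.42 in int 3, and 0 of the 1 tested marker passed. No marker named here was at 0 in all libraries, and the part of these cell classes in the integrin values was not tested.

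Set against Ptprc, the CD45 gene of all leukocytes, the integrin chains moved unequally. Ptprc stood at 11.2 to 11.99 FPKM in int 2 against 4.41, 2.83 and 5.80 in int 3-1, int 3-2 and int 3-3. The ratio of Itgb2 to Ptprc was 0.511 to 0.558 in int 2 and 0.773 to 1.23 in int 3, and that of Itga4 0.146 to 0.160 and 0.239 to 0.438. Both ratios were higher in every int 3 library. The ratio of Itgax, 0.185 to 0.231 in int 2 and 0.324 to 0.482 in int 3, was also higher in every int 3 library. For Itgb7 the ratio was 0.245 to 0.272 in int 2 and 0.253 to 0.325 in int 3, so the groups overlapped. They also overlapped for Itgal, at 0.214 to 0.227 and 0.217 to 0.337, and for Itgae, at 0.0871 to 0.107 and 0.105 to 0.192. The ratio of Itgam to Ptprc was 0.0955 to 0.103 in int 2 and 0.715, 1.31 and 0.402 in int 3-1, int 3-2 and int 3-3. These ratios depend on the marker chosen. The int 3 mean over the int 2 mean was 0.375 for Ptprc, 0.443 for Coro1a, 0.483 for Cd53 and 0.673 for Laptm5. It was 0.680 for Itgb2, 0.772 for Itga4 and 0.435 for Itgb7. The mean of Itgb2 thus changed much as that of Laptm5, and ratios to the other general markers were not computed.

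Of the 14 tested tissue integrins 5 rose, namely Itga3, Itga5, Itga6, Itgav and Itgb4. Itgb1, the β1 chain that pairs with most matrix-binding α chains, was the most abundant member in every library, at 112, 118 and 109 FPKM in int 2 and 148, 172 and 129 in int 3. Every int 3 library was above every int 2 library, but Itgb1 did not pass (log2 change 0.39, interval 0.14 to 0.65, adjusted p = 0.0549). It passed with median-of-ratios scaling (adjusted p = 0.0337), with group weights (0.0322), without int 3-2 (0.0321) and without int 3-3 (0.0054). It did not pass without int 2-1, int 2-2, int 2-3 or int 3-1 (0.146 to 0.184).

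Itga5, the α5 chain of the fibronectin receptor α5β1, stood at 14.0, 13.1 and 13.3 FPKM in int 2 against 21.7, 18.8 and 22.3 in int 3. It was higher in all 3 int 3 libraries, and its log2 change was 0.60 (SE 0.07, adjusted p = 0.00493). Itga3, the α3 chain of the epithelial laminin receptor α3β1, stood at 14.3, 14.3 and 14.6 FPKM in int 2 and 20.1, 22.0 and 19.6 in int 3. The int 3 libraries were close to each other, and the change was 0.48 (SE 0.06, adjusted p = 0.00439).

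Chains of α6β4, the laminin receptor of hemidesmosomes, also rose. Itga6 stood at 24.5, 23.9 and 24.2 FPKM in int 2 and 32.2, 35.6 and 27.3 in int 3 (0.37, SE 0.10, adjusted p = 0.0495). Itgb4 stood at 16.9, 16.4 and 17.1 in int 2 and 22.2, 20.9 and 24.9 in int 3 (0.41, SE 0.07, adjusted p = 0.0152). Neither overlapped between the groups, but int 3-2 was highest for Itga6 and lowest within int 3 for Itgb4. Itgav, the αv chain of receptors for vitronectin and latent TGF-β, stood at 7.32, 7.40 and 7.25 in int 2 and 9.83, 11.7 and 9.07 in int 3 (0.42, SE 0.09, adjusted p = 0.0302). Of the β chains that pair with αv besides Itgb1, Itgb5 stood at 20.4 ± 0.213 and 20.5 ± 1.747 FPKM (0.01, interval -0.16 to 0.18), Itgb3 at 4.38 ± 0.238 and 4.67 ± 0.200 (0.08, interval -0.08 to 0.23) and Itgb6 at 2.77 ± 0.208 and 3.29 ± 0.197 (0.19, interval 0.01 to 0.37). None of these 3 passed (adjusted p = 0.939, 0.449 and 0.143).

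The calls of Itga3 and Itga5 held in each of the 15 alternative fits. Those of Itga6, Itgav and Itgb4 were lost without int 2-1, int 2-2, int 2-3 or int 3-1, with adjusted p of 0.155 to 0.169, 0.101 to 0.122 and 0.0690 to 0.0832, and held without int 3-2 or int 3-3. Itga6 was also lost with pseudocounts of 0.1 and 0.01 (0.0504 and 0.0509), without a filter (0.0876) and with TPM (0.0537), Itgav without a filter (0.0585), and Itgb4 with median-of-ratios scaling (0.0540).

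Collagen receptor chains depended on the library. Itga2, the α2 chain of a collagen and laminin receptor of epithelium, stood at 3.45, 3.53 and 3.51 FPKM in int 2 against 7.46, 11.8 and 3.27 in int 3-1, int 3-2 and int 3-3. It was thus raised in 2 libraries and below int 2 in the third, and it did not pass (0.78, interval -0.12 to 1.68, adjusted p = 0.203). Without int 3-3 its change was 1.21 (adjusted p = 0.00385). Its neighbour on chromosome 13, Itga1, the α1 chain of a collagen receptor of muscle and stroma, stood at 7.22, 7.12 and 7.99 in int 2 against 8.74, 10.7 and 7.01 in int 3, with the same order of int 3 libraries (adjusted p = 0.361). Itga1 passed without int 3-3 (adjusted p = 0.0346). The ratio of Itga2 to Itga1 was 0.439 to 0.496 in int 2 and 0.854, 1.10 and 0.467 in int 3-1, int 3-2 and int 3-3.

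The other tissue chains gave no call. Itga7, the α7 laminin receptor chain of muscle, stood at 5.32 ± 0.120 and 6.27 ± 1.65 FPKM, and Itga9, a receptor chain for tenascin and other ligands, at 4.73 ± 0.179 and 4.86 ± 0.635. Among the alternative fits Itga7 passed without int 3-3 (adjusted p = 0.0313). Itga8, an RGD-binding chain of smooth muscle and mesenchyme, had lower values in all int 3 libraries, 1.4 ± 0.136 against 1.05 ± 0.167, and did not pass (-0.23, interval -0.46 to -0.01, adjusted p = 0.144). Below the filter, Itga10 and Itga11, collagen receptor chains of cartilage and fibroblasts, stood at 0.373 to 0.980 FPKM over all libraries. Itga2b, the platelet chain that pairs with Itgb3, stood at 0.221 to 0.571, and Itgb8, a chain that activates latent TGF-β, at 0.207 to 0.301. All of these 4 overlapped between the groups.

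**Figure D4:**
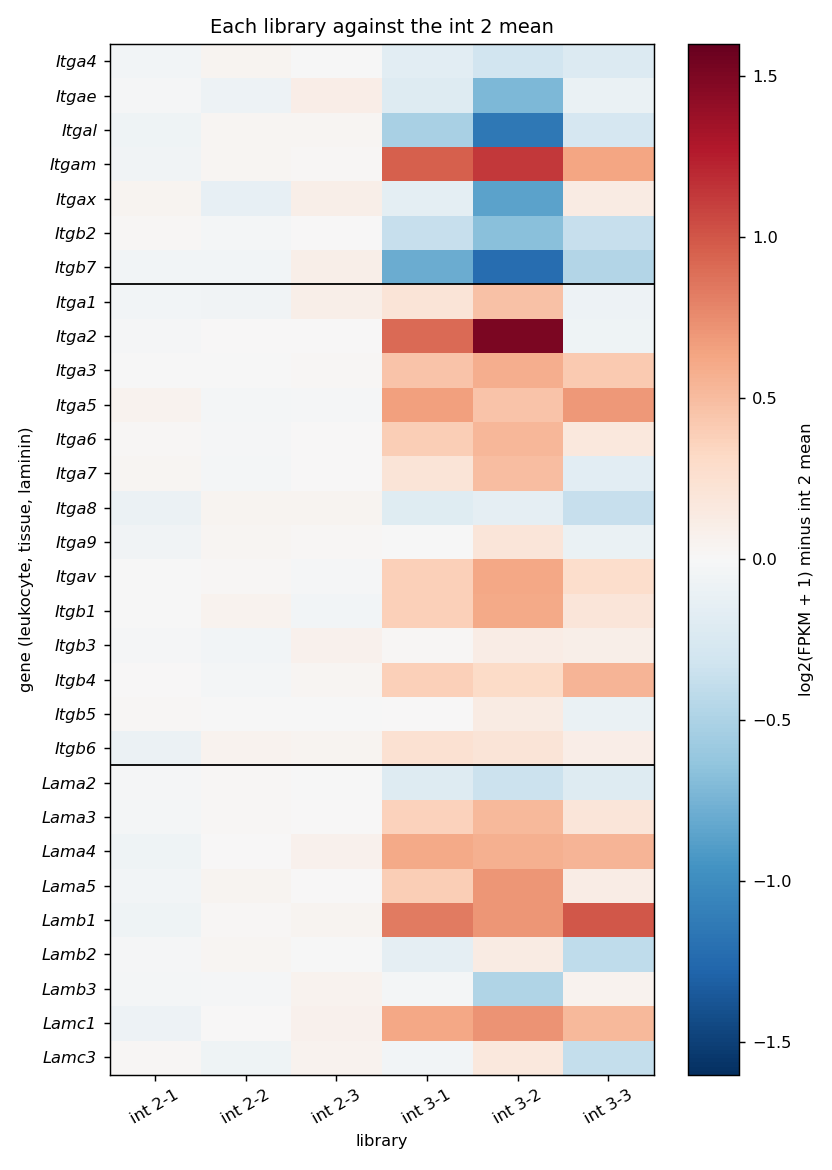
Log2(FPKM + 1) of the same 30 genes in each library minus the int 2 mean, red for higher and blue for lower, in rows for leukocyte integrins, tissue integrins and laminin chains. The 3 int 2 columns are near 0, int 3-2 has the strongest colours, and Itgam is red in an otherwise mostly blue leukocyte block.

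The class medians of these differences were -0.27, -0.76 and -0.24 for leukocyte integrins other than Itgae in int 3-1, int 3-2 and int 3-3, 0.31, 0.47 and 0.10 for tissue integrins and 0.38, 0.55 and 0.16 for laminin chains. Over all tested genes they were 0.04, 0.09 and -0.03. All 3 class medians lay farthest from 0 in int 3-2.

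Laminin chains rose in 4 of 10 tested members. Lamb1, the β1 chain of most laminins, stood at 9.43, 10.1 and 10.3 FPKM in int 2 and 18.5, 16.9 and 20.7 in int 3. It had the largest change among the tested laminin chains (1.88-fold; 0.85, SE 0.08, adjusted p = 0.00220).

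The γ chain found in most laminins and the α chain of vessels rose with it. Lamc1 stood at 9.05, 9.66 and 10.2 FPKM in int 2 and 15.3, 16.5 and 14.2 in int 3 (0.62, SE 0.07, adjusted p = 0.00413). Lama4, the α4 chain of endothelial and muscle basement membranes, stood at 4.91, 5.20 and 5.49 in int 2 against 8.39, 8.23 and 8.03 in int 3 (0.57, SE 0.06, adjusted p = 0.00278). Neither overlapped between the groups. The calls of Lamb1, Lamc1 and Lama4 held in each of the 15 alternative fits, with adjusted p of at most 0.0325.

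Lama1, the α1 chain typical of embryonic basement membranes, was too low for the test and yet differed most in ratio. It stood at 0.137, 0.110 and 0.105 FPKM in int 2 against 0.833, 0.906 and 0.629 in int 3, on 36 to 47 and 221 to 309 fragments per library. All int 3 libraries were above all int 2 libraries, with means 6.73-fold apart. In the fit without a filter its log2 change was 0.68 (SE 0.06, adjusted p = 0.00625).

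Lamb3 and Lama3, chains of epithelial basement membranes, did not pass. Lamb3, a β3 chain, stood at 17.3, 17.6 and 18.5 FPKM in int 2 and 17.4, 12.5 and 18.6 in int 3 (-0.15, interval -0.49 to 0.19, adjusted p = 0.489). Lama3, an α3 chain, stood at 1.43, 1.5 and 1.49 in int 2 and 2.20, 2.55 and 1.82 in int 3, without overlap (0.36, interval 0.12 to 0.60, adjusted p = 0.0555). Lama3 passed with median-of-ratios scaling, with voom and without int 3-3 (adjusted p = 0.0360, 0.0403 and 0.00854).

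Among the chains left, Lama5, the α5 chain of mature epithelial and vessel basement membranes, stood at 3.77, 4.09 and 3.95 FPKM in int 2 and 5.49, 7.05 and 4.38 in int 3 (0.41, interval 0.06 to 0.76, adjusted p = 0.112). Lama5 passed without int 3-3 (adjusted p = 0.00956). Lama2, the α2 chain of muscle and nerve, had lower values in all int 3 libraries, at 1.86, 1.93 and 1.87 against 1.49, 1.27 and 1.49, and did not pass (-0.26, interval -0.43 to -0.08, adjusted p = 0.0599). With voom and without int 3-3 it did (adjusted p = 0.0265 and 0.0334). Lamb2, the β2 chain of muscle and vessels, overlapped between the groups (14.3 ± 0.280 and 13.01 ± 2.64 FPKM, adjusted p = 0.496), as did the sparse γ3 chain Lamc3 (0.995 ± 0.0923 and 0.903 ± 0.357, adjusted p = 0.722).

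Within the summed FPKM of the 3 β chains, Lamb1 took 23.1% to 23.9% in int 2 and 37.4% to 41.6% in int 3, and Lamb3 41.6% to 43.1% and 27.7% to 37.3%. Among the α chains Lama2 took 14.5% to 15.3% in int 2 and 6.34% to 9.11% in int 3, while Lama4 was the largest in each library, at 40.5% to 42.5% and 41.1% to 49.1%. These shares describe RNA and not assembled laminin.

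Markers of the cells that make these genes were uneven too, beside 8.64% of all tested genes that rose and 6.7% that fell. The summed level of 5 blood endothelial markers was 41.4 to 42.8 FPKM in int 2 and 70.5, 93.9 and 46.9 in int 3-1, int 3-2 and int 3-3, and 0 of 5 passed. Fibroblast markers rose in 2 of 5 (294 to 296 and 293 to 365), enteric glia markers in 1 of 4 (Gfap, tested only because of its int 3 values; summed level 8.54 to 8.84 and 10.002 to 19.98), and smooth muscle markers fell in 2 of 5 (2821 to 2864 and 2270 to 2543). Of 8 epithelial markers 0 passed, though the values of Muc2 and Vil1 did not overlap between the groups (adjusted p = 0.138 and 0.296). The part of all these cells in the integrin and laminin values was not tested.

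Ligands of integrins rose in 8 of 20 tested members of a list of 25, and 0 fell, against 8.64% of all tested genes that rose. The median log2 change of the list was 0.36. The members with the smallest p were Emilin1, an elastic fibre protein bound by α4β1 and α9β1 (13.8 ± 0.911 to 24.6 ± 2.20 FPKM, adjusted p = 0.00276), Col1a2, a chain of collagen I (59.8 ± 0.923 to 77.8 ± 1.73, adjusted p = 0.00403), and Fn1, fibronectin (31.5 ± 0.673 to 54.1 ± 7.17, adjusted p = 0.00537). Tnc, tenascin C, followed with 11.9 ± 0.0951 to 25.1 ± 5.37 (adjusted p = 0.00794), and C3, the complement protein whose fragment iC3b is bound by αMβ2, with 20.9 ± 0.584 to 71.8 ± 30.2 (adjusted p = 0.0154). C3 did not pass without some libraries (up to 0.0747). The list gave 4 calls when int 2-1, int 2-2, int 2-3 or int 3-1 was left out and 16 when int 3-3 was. Of these 16, 14 were rises and 2 were falls. Over all 12525 tested genes the same fits gave 615 to 642 calls and 4913 calls, against 1921 with all libraries. The falls in the list numbered 1 with median-of-ratios scaling, with group weights, with voom and without int 3-2.

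Of the vessel and epithelial ligands of leukocyte integrins only Vcam1, the ligand of α4β1, rose, from 6.18 ± 0.139 to 8.15 ± 0.609 FPKM (0.35, SE 0.07, adjusted p = 0.0206), and it did not pass with median-of-ratios scaling (0.0600) and without some libraries (up to 0.102). Madcam1, the ligand of α4β7, stood at 5.63 ± 0.990 and 7.75 ± 1.32 (interval of the change 0.05 to 0.75, adjusted p = 0.117). Icam1 and Icam2, ligands of LFA-1, stood at 7.38 ± 0.584 and 8.50 ± 1.27 and at 3.95 ± 0.368 and 5.19 ± 1.29 (adjusted p = 0.317 and 0.254). Cdh1, E-cadherin and ligand of αEβ7, stood at 178 ± 1.47 and 163 ± 17.0 (-0.13, interval -0.32 to 0.06, adjusted p = 0.306).

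Inside the cell, 7 of the 34 listed genes of the adhesion machinery rose, 3 fell and 24 did not pass (median 0.11), against 8.64% that rose and 6.7% that fell over all tested genes. The 3 that fell were Parvg, the parvin of blood cells (3.39 ± 0.0781 to 1.05 ± 0.355 FPKM, adjusted p = 0.00413), Rasgrp2, an activator of Rap1 in platelets and leukocytes (3.61 ± 0.153 to 1.76 ± 0.157, adjusted p = 0.00218), and Fermt3, the kindlin of blood cells (6.35 ± 0.691 to 4.19 ± 0.723, adjusted p = 0.0442). Fermt3 was named after its value was seen, and it did not pass with TPM (0.0525), median-of-ratios scaling (0.0513), group weights (0.0690) or no filter (0.0876). It also did not pass without int 2-1, int 2-2, int 2-3 or int 3-1 (0.0873 to 0.165). The other listed parvins and kindlins, also chosen after their values were seen, did not pass, with changes of 0.16 for Parva, 0.54 for Parvb, -0.01 for Fermt1 and 0.19 for Fermt2 (adjusted p = 0.0508, 0.0990, 0.910 and 0.326). Cd47, a partner of αvβ3, rose from 6.23 ± 0.101 to 10.1 ± 0.340 (adjusted p = 0.00140), Tln2, talin 2, from 2.38 ± 0.0570 to 3.48 ± 0.17 (adjusted p = 0.01), and Rap1b, a small GTPase that recruits talin, from 85.7 ± 3.25 to 106 ± 2.80 (adjusted p = 0.0128). Leaving out int 2-1, int 2-2, int 2-3 or int 3-1 gave 3 calls and leaving out int 3-3 gave 20, where all 12525 tested genes gave 615 to 642 and 4913. With 1 library left out Tln2 and Rap1b reached adjusted p of 0.0631 and 0.0785. Rap1b did not pass with median-of-ratios scaling (0.0521).

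Genes of the basement membrane around the laminins rose in 6 of 16 tested members of a list of 20, with 0 falls (median 0.35), against 8.64% that rose over all tested genes. Col18a1, whose collagen XVIII carries endostatin, rose from 4.61 ± 0.203 to 18.1 ± 2.6 FPKM (1.76, SE 0.10, adjusted p = 0.000442) and was called in each of the 15 alternative fits. Col15a1, a collagen of vessel and muscle basement membranes, rose from 7.60 ± 0.0554 to 12.97 ± 2.52 (adjusted p = 0.0196), Nid1, nidogen that bridges laminin and collagen IV, from 10.3 ± 0.210 to 18.6 ± 4.46 (adjusted p = 0.0265), and Col4a1 from 37.3 ± 0.460 to 68.2 ± 17.5 (adjusted p = 0.0276). Dag1, the laminin receptor dystroglycan, rose from 25.8 ± 0.862 to 30.7 ± 1.45 (adjusted p = 0.0341), not with median-of-ratios scaling or group weights (0.0506 and 0.0573). Without a filter Nid1 and Col4a1 did not pass (0.0575 and 0.0604). When int 2-1, int 2-2, int 2-3 or int 3-1 was dropped only Col18a1 was called, and when int 3-3 was dropped 13 were. Calls over all 12525 tested genes in these fits numbered 615 to 642 and 4913.

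**Figure D5:**
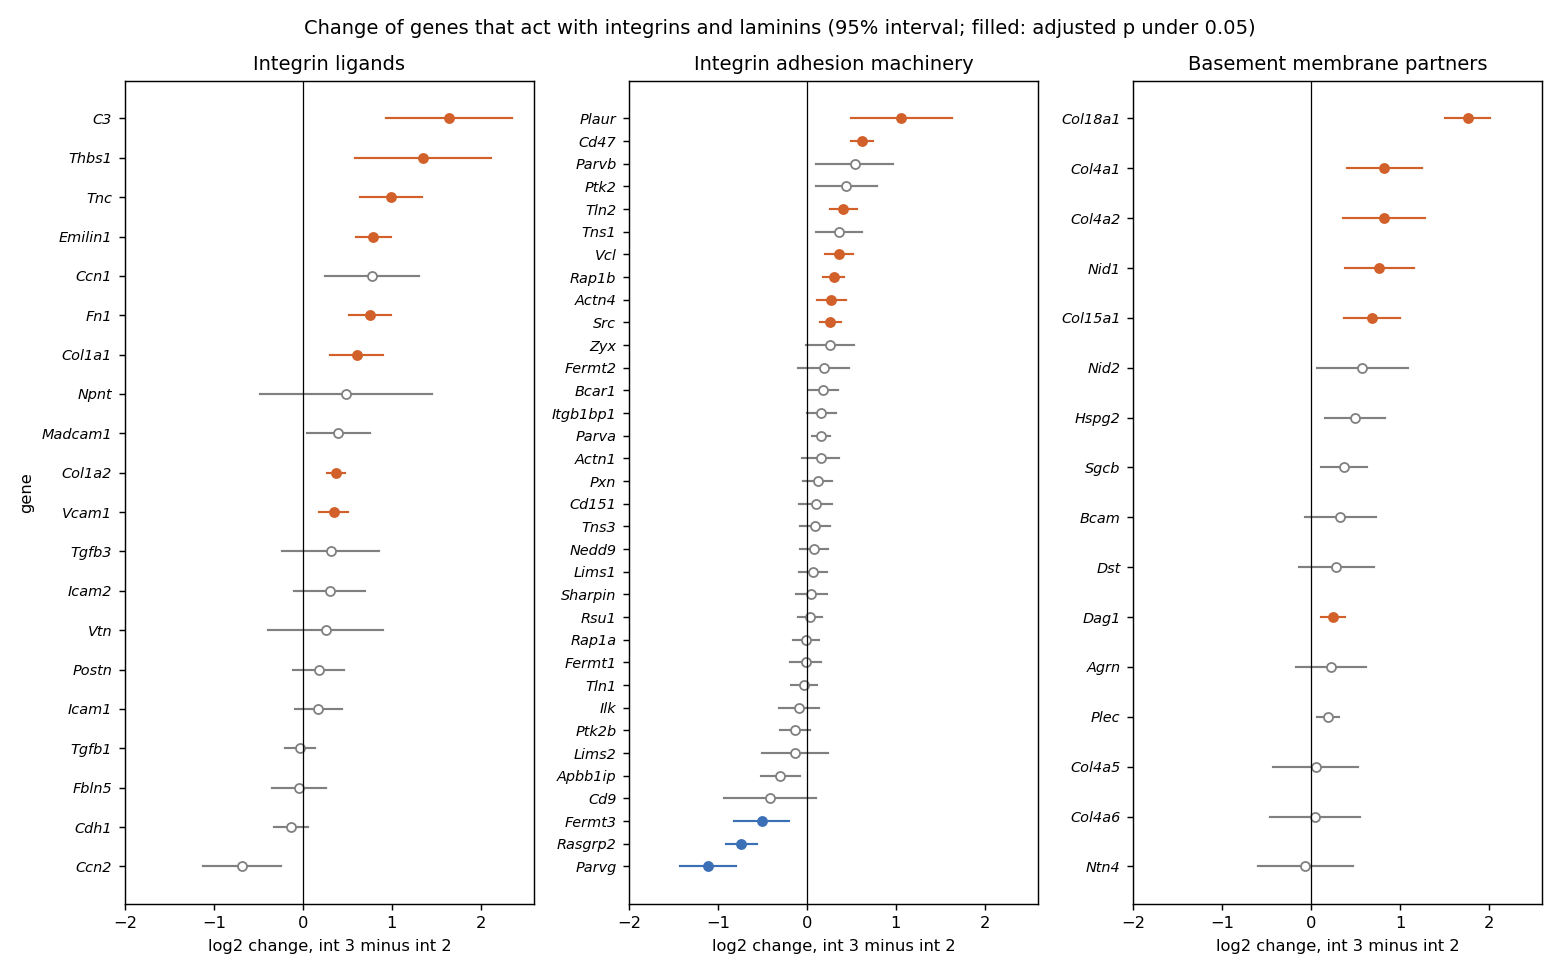
Log2 change of the tested members of the 3 lists of ligands, adhesion machinery and basement membrane partners, with 95% intervals from limma. Filled symbols passed the test. Parvg, Rasgrp2 and Fermt3 are the filled symbols below 0.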

How the data were processed

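Large intestine RNA of 6 samples (3 titled int 2, 3 titled int 3) was isolated with TRIzol, and a VAHTS Universal V10 kit served for the libraries, per the labels' protocols. Expression was deposited as a table of FPKM by the authors for 35434 gene symbols, a unit read from its name and values. Build GRCm39 is named per the submitters' processing notes. Aligner, counting tool, annotation and strand use: not given in the sources used here.

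Whole fragments were recovered from steps in the FPKM values for 12483 of 12525 tested genes (99.7%, within 1e-06 of a whole multiple) and for all 37 members.

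limma 3.58.1 under R 4.3.3 (trended eBayes, two-sided) tested the difference of log2(FPKM + 1) between int 3 and int 2 over genes that reached 1 FPKM in 3 libraries. Benjamini-Hochberg adjustment ran over all 12525 genes, with a threshold of 0.05. Errors are SD, n = 3, unless named SE. Python 3.11.15, numpy 2.4.6, pandas 2.3.3 and matplotlib 3.10.9 made summaries and figures. The fit was also run on simulated data, and no outcome of that run is given or used here. That run therefore says nothing on how the fit handles the larger spread of int 3.

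Members and lists were chosen with earlier results of these data known. The values of 1 member, which the counts include, are not reported here, and the other members are named. Of each partner list the up to 5 called genes with the smallest p are named, and the 5 vessel and epithelial ligands whatever their values. Alternatives were pseudocounts of 0.1 and 0.01, a lower limit of 5 on the mean FPKM, no filter, TPM, scaling by median of ratios, a replicate block, group weights, voom on the fragments and leaving out each library.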

Additional observations from a re-analysis of the deposited data

How the results depend on the processing

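Each called member kept its direction under all alternatives. Itgam, Itga3, Itga5, Lama4, Lamb1 and Lamc1 kept their calls wherever they were fitted. Of 186 values of members with 1 library left out, 152 kept direction and side of the threshold, and of 265 under the other alternatives 244 did. The exceptions in direction were members without a call: Itga9 and Itgb5 turned to -0.0069 and -0.031 with median-of-ratios scaling and to -0.056 and -0.049 without int 3-2, Lamb3 to 0.011 without int 3-2 and Lamc3 to 0.062 without int 3-3. With 1 library left out their log2 changes ran from -0.056 to 0.095 for Itga9, -0.049 to 0.068 for Itgb5, -0.26 to 0.011 for Lamb3 and -0.21 to 0.062 for Lamc3.

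With 1 library left out the number of called genes ran from 615 to 4913 over all tested genes, where 1921 were called, and from 1 to 4 for leukocyte integrins, 2 to 9 for tissue integrins, 4 to 7 for laminin chains, 4 to 16 for ligands, 3 to 20 for the adhesion machinery and 1 to 13 for basement membrane partners. The highest counts, in each case, came without int 3-3, shared by leukocyte integrins with the fit without int 3-2. Without a filter 1 leukocyte integrin, 3 tissue integrins and 3 basement membrane partners were called, and 1 leukocyte integrin, of 1 tested, at a mean FPKM of 5 or more. The cause was not tested.

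The labels state no pairing by replicate number. Deviations of libraries with the same number correlated at -0.015, 0.0041 and -0.022. These values cannot decide if libraries were paired, because the int 2 libraries differed little from each other. With the replicate block 889 genes were called, 3 tissue integrins, 5 ligands, 5 genes of the adhesion machinery and 3 basement membrane partners. Among members with a call Itga6, Itgav and Itgb2 did not pass under the block (adjusted p = 0.0944, 0.0660 and 0.0558). The median log2 change of all tested genes was 0.03 in the deposited FPKM, 0.10 with TPM and -0.0016 with median-of-ratios scaling. Depth limits Itgad most, with 1 to 10 fragments in a library.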
